A study of Rattus norvegicus with 12 samples.

Results

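The genes described here encode the voltage-gated, inward rectifier, two-pore and calcium- or sodium-activated potassium channels, the voltage-gated sodium channels, the voltage-gated calcium channels and the accessory subunits of each. They were chosen by gene symbol alone, as every symbol beginning with Kcn, every Scn symbol made of a number and a or b, and every symbol beginning with Cacna, Cacnb or Cacng. The rule found 132 of the 32883 genes in the deposited tables, of which 92 belong to potassium, 14 to sodium and 26 to calcium channels. A count was recorded in at least 1 library for 111 of them, and 21 had no count in any library.

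Ion channels set the excitability of nerve cells and the potassium handling of glia. Voltage-gated sodium and calcium channels have a pore-forming alpha subunit that carries the current and accessory subunits (beta, alpha2delta, gamma) that set its trafficking and gating. Potassium channels repolarize the membrane or hold it at rest, and the inward rectifier encoded by Kcnj10 is the main potassium conductance of astrocytes and oligodendrocytes.

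RNA was sequenced from 1464R cells, an immortalized line of adult rat neural stem cells that had been differentiated with retinoic acid into a mixture of neuronal and glial cells and then moved to serum-free medium lacking antioxidants. The 4 groups had 3 libraries each. The TDP-43 + EA + Eda group received adenovirus carrying TDP-43, 20 µmol/L ethacrynic acid (EA, which depletes glutathione) and 50 µmol/L edaravone (Eda, a free-radical scavenger), the TDP-43 + EA group the same without edaravone, the Eda group edaravone alone, and the Control group none of these. The paper describes viruses for both the full-length human protein and a C-terminal piece of it, whereas the labels name the piece only. The multiplicity of infection was 50. TDP-43 is a nuclear RNA-binding protein that aggregates in motor neurons in amyotrophic lateral sclerosis. Edaravone was present from the medium change and ethacrynic acid from the following day. In these 4 groups virus and ethacrynic acid were always given together and the Control group had no virus. The parts of adenovirus, TDP-43 and ethacrynic acid in any difference thus cannot be told apart from these libraries. The paper's supplement also compares cells with TDP-43 alone or ethacrynic acid alone, which are not among the libraries used here. For TDP-43 alone the paper describes only a small difference in expression from control cells. All libraries came from 1 cell line, and the paper's captions describe the replicates as coming from separate experiments without saying which library belongs to which. A p-value here covers the spread between libraries of this single line.

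Library totals were 17.4 to 43.9 M expected counts (M for 1e+06), with TDP-43 + EA + Eda replicate 1 the deepest, and channel genes took 0.0380 to 0.0744% of them. Tardbp, the rat gene of TDP-43, for which a part of viral reads was not tested, stood at 2000 to 3672 counts per M counts of the library (CPM) in TDP-43 + EA + Eda libraries, 1087 to 1796 CPM in TDP-43 + EA libraries, 34.5 to 38.7 CPM in Eda libraries and 37.1 to 41.1 CPM in Control libraries. Levels of a gene between libraries are given below as CPM scaled by TMM factors, which ran from 0.829 to 0.860 in TDP-43 + EA + Eda and from 1.02 to 1.10 elsewhere. Levels of different genes are compared only in transcripts per M transcripts (TPM), which are corrected for length. On the TPM scale the median of all genes tested lay at -0.08 (log2) in TDP-43 + EA against Control, at -0.21 in TDP-43 + EA + Eda relative to TDP-43 + EA and at -0.33 in TDP-43 + EA + Eda against Control. Summed TPM values of the stressed groups are to be read against these shifts. Differences are log2 fold changes with their standard error (SE) from the quasi-likelihood test of edgeR, with p-values adjusted by the Benjamini-Hochberg method over the 13230 genes tested. A gene is said to have risen or fallen at an adjusted p of at most 0.05.

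Of the channel genes, 62 passed the filter on low counts and were tested, namely 39 potassium, 9 sodium and 14 calcium channel genes. A gene low in most groups passed this filter only if 1 group was high enough, so the 62 are not a sample of all 132. The 49 others with a count were low. Kcnq3, which encodes a subunit of the M-type potassium channel, had the most with 71 counts over the 12 libraries, and only Kcnk6, Kcna5 and Kcnq3 exceeded 0.2 TPM in the mean of any group. The 21 genes with no count included the potassium channel genes Kcna4, Kcnj3, Kcnj6, Kcnj11 and Kcnk9 and the sodium channel beta subunit genes Scn2b and Scn4b.

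In Control cells a few genes made up most of the channel RNA. Kcnk12, which encodes a two-pore potassium channel that gives little current on its own in many expression systems, stood at 86.2 ± 16.6 TPM (SD, n = 3 here and below). Kcnj12, a strong inward rectifier, stood at 75.1 ± 6.75 TPM, and the ranges of these genes overlapped (68.4 to 101.1 TPM for Kcnk12 and 69.2 to 82.4 TPM for Kcnj12). Cacna2d1, the alpha2delta subunit bound by gabapentin, stood at 28.5 ± 2.75 TPM, below both of them in every Control library. Lower still were Kcna3 (13.4 ± 1.40 TPM), Kcnj10 (11.4 ± 2.34 TPM), Scn4a (10.4 ± 1.73 TPM) and Kcnq5 (10.1 ± 1.13 TPM), each of which overlapped with the next in this order. In all, 8 channel genes reached 10 TPM and 34 reached 1 TPM in the Control mean. Sodium channel alpha subunits were low apart from Scn4a, the subunit best known from skeletal muscle, which supplied 87.7% of the summed TPM of its class. Scn8a and Scn2a, the alpha subunits of mature and of immature axons, stood at 0.728 ± 0.245 and 0.287 ± 0.145 TPM. Among the calcium channel alpha1 subunits the P/Q-type Cacna1a was highest (4.70 ± 0.823 TPM), followed by the T-type Cacna1h (2.95 ± 0.469 TPM).

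The first comparison asked how the RNA of channel genes differed in cells carrying TDP-43 virus and ethacrynic acid. Of the 62 genes tested, 7 rose and 10 fell in TDP-43 + EA against Control, or 11.3% and 16.1%, while 19.6% of all genes tested rose and 18.7% fell. The median log2 fold change was -0.10 over the channel genes and 0.00 over all genes tested. By these shares channel genes as a whole were not called more often than other genes. The shares were not matched for abundance, and 32 of the 62 channel genes had a mean of at least 50 counts. What follows describes which members were called. By class, the genes that fell included 2 of 4 inward rectifiers (Kcnj10 and Kcnj12), whereas none of the 7 potassium channel accessory genes and neither alpha2delta gene passed the threshold. Voltage-gated potassium channel alpha subunits moved both ways, with 3 of 18 higher and 2 lower. Without TDP-43 + EA replicate 1 the number that rose was 4, and Cacna1i, Cacnb1 and Kcna1 were the ones lost.

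**Figure D1:**
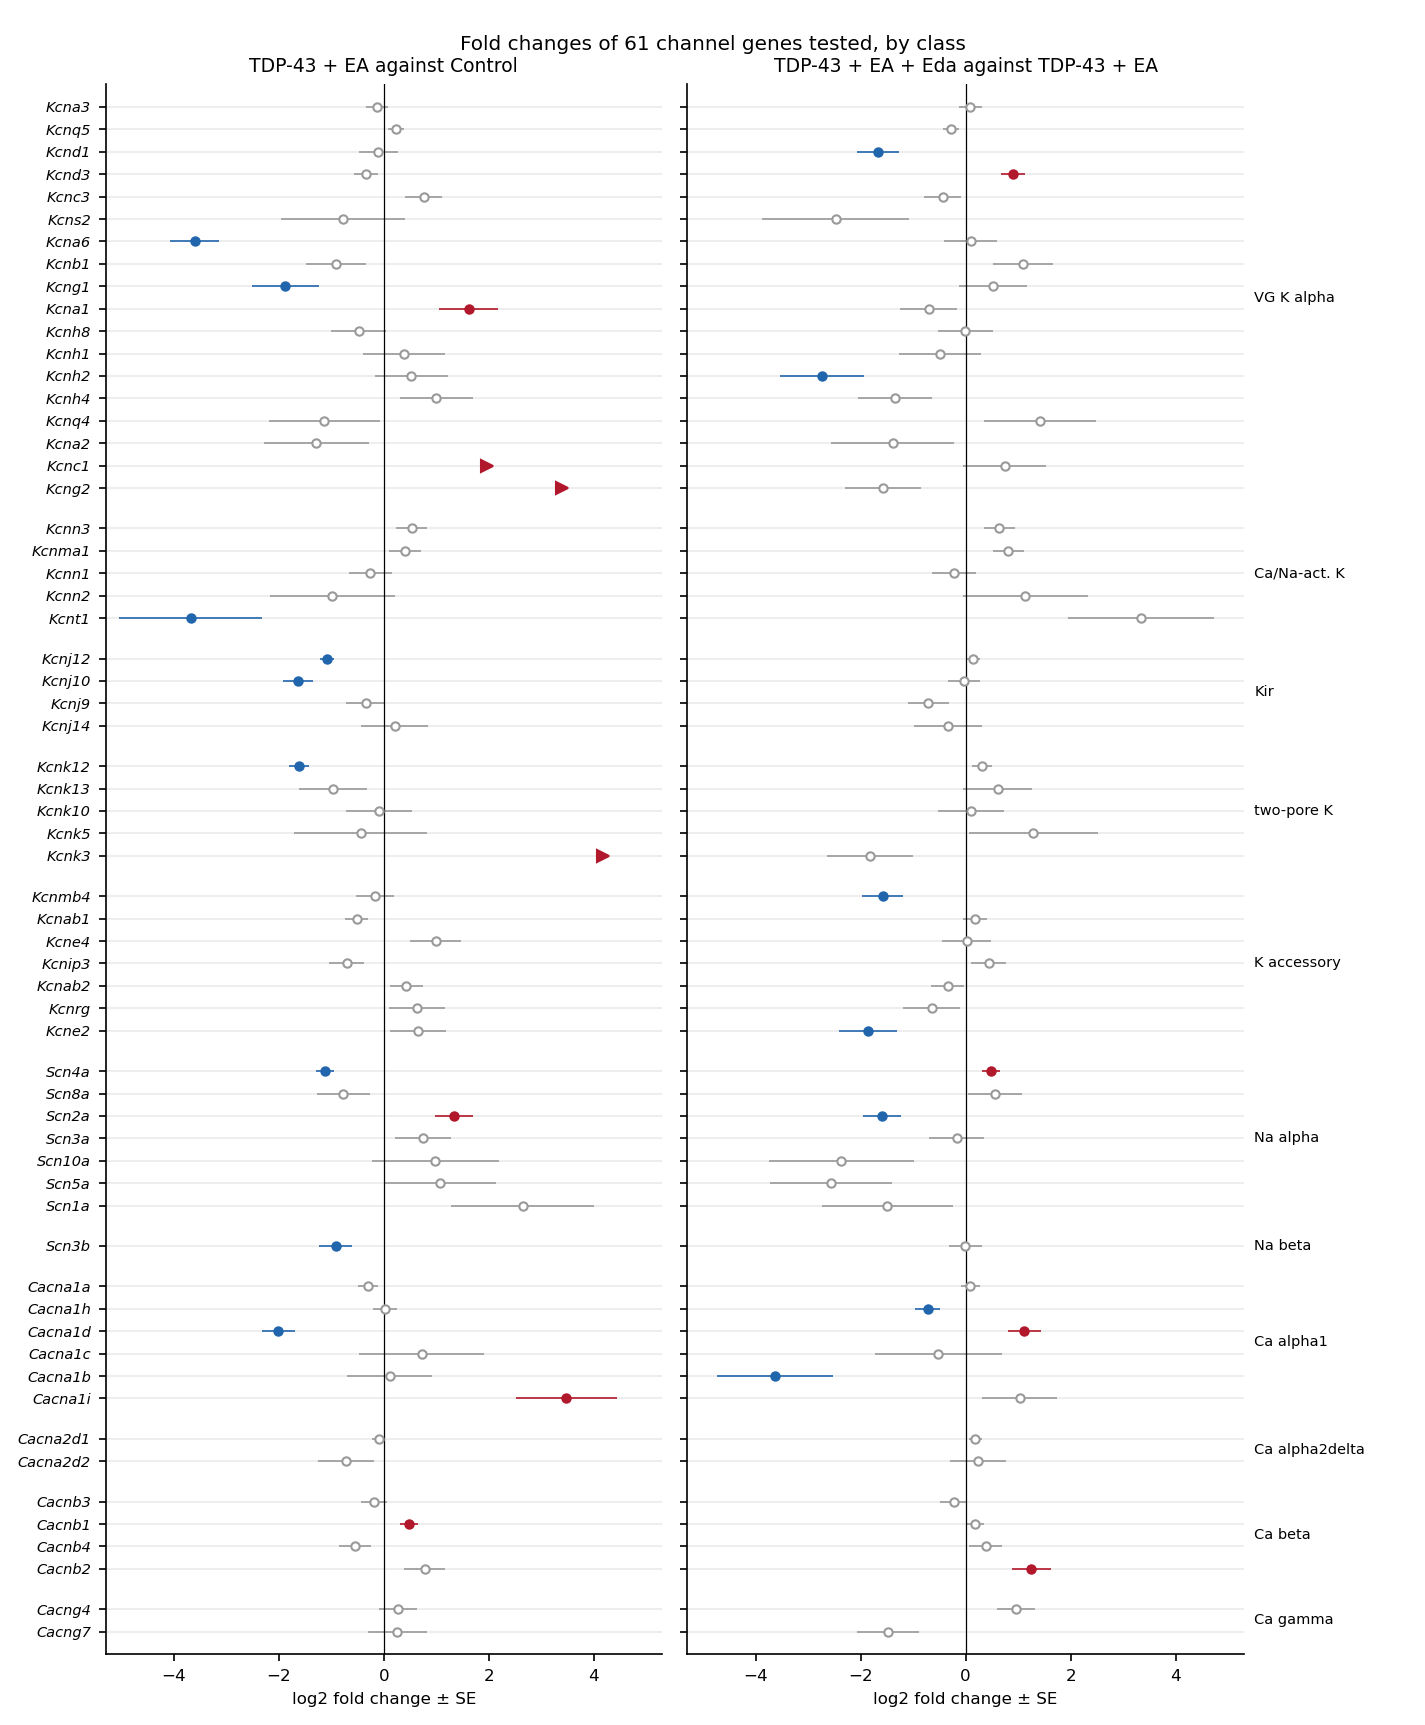
Log2 fold change with SE (horizontal axis) of 61 channel genes tested, grouped by class down the page, in TDP-43 + EA against Control (left) and TDP-43 + EA + Eda relative to TDP-43 + EA (right). Red and blue filled points rose and fell at an adjusted p of at most 0.05, open points did not pass, and triangles are lower bounds for genes with no count in Control. Among those drawn, 7 are red and 9 blue on the left, 4 red and 7 blue on the right.

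The two-pore and inward rectifier genes that dominated Control were all lower in TDP-43 + EA. Kcnk12 (chr6:11373917-11494459, minus strand, Rnor_6.0) was at 24.4, 22.5 and 33.6 CPM in TDP-43 + EA, against 84.2, 61.8 and 101 CPM in Control. The groups did not overlap, and the gene fell by 1.62 on the log2 scale (SE 0.20, edgeR adjusted p = 1.61e-05). Kcnj12 (chr10:47281786-47341411, plus strand) was at 42.3, 55.5 and 55.9 CPM in TDP-43 + EA and at 107, 97.5 and 121 CPM in Control. Every TDP-43 + EA library was below every Control library, with a log2 fold change of -1.08 (SE 0.13, edgeR adjusted p = 1.13e-05). Kcnj10 (chr13:90723092-90752581, plus strand), the glial inward rectifier, was at 3.46, 3.03 and 2.84 CPM in TDP-43 + EA and at 10.9, 7.22 and 10.9 CPM in Control. It was likewise lower throughout, by 1.63 on the log2 scale (log2 fold change -1.63 with SE 0.29, edgeR adjusted p = 0.000485). Kcnj9, a subunit of G protein-gated channels that lies 12.8 kb from Kcnj10, had a log2 fold change of -0.35 (SE 0.37) that did not pass the test. Kcnk13, the closest relative of Kcnk12, had one of -0.97 (SE 0.65, edgeR adjusted p = 0.26).

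Summed TPM showed how much of each class these genes carried. Two-pore potassium channels summed to 28.6 ± 6.43 TPM in TDP-43 + EA and 89.4 ± 17.1 TPM in Control, where Kcnk12 was 96.4% of the sum. Inward rectifiers summed to 39.9 ± 4.27 TPM in TDP-43 + EA and 90.1 ± 8.38 TPM in Control, where Kcnj12 was 83.4%. By contrast the voltage-gated potassium channel alpha subunits summed to 39.2 ± 5.89 TPM in TDP-43 + EA and 38.4 ± 1.88 TPM in Control, with overlapping ranges. The alpha2delta subunits, 97.3% Cacna2d1, summed to 25.3 ± 3.89 TPM in TDP-43 + EA and 29.3 ± 2.87 TPM in Control, and these ranges overlapped as well. All channel genes together summed to 234 ± 15.2 TPM in TDP-43 + EA and 371 ± 27.5 TPM in Control, a gap larger than the spread within either group.

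**Figure D2:**
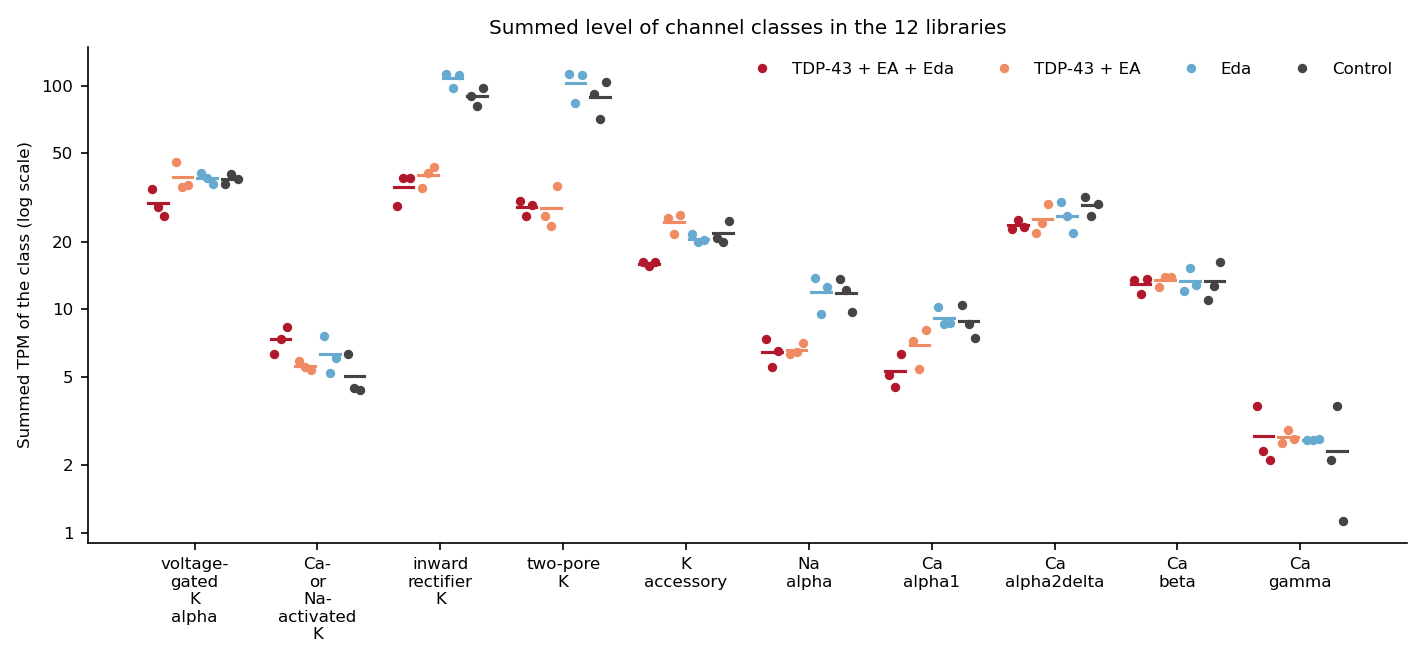
Summed TPM (log axis) of the genes of 10 channel classes, with points for the 3 libraries of TDP-43 + EA + Eda, TDP-43 + EA, Eda and Control (left to right within a class) and bars for their means. The two-pore class averages 28.7, 28.6, 103 and 89.4 TPM in that order and the inward rectifier class 35.5, 39.9, 108 and 90.1 TPM, while the calcium channel beta class averages 13.0, 13.5, 13.4 and 13.3 TPM.

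Among voltage-gated potassium channel alpha subunits, Kcna6 (chr4:159253934-159287193, minus strand), a delayed rectifier, was at 0.180, 0.513 and 0.699 CPM in TDP-43 + EA and at 4.80, 7.18 and 5.01 CPM in Control. Its log2 fold change of -3.60 (SE 0.46, edgeR adjusted p = 2.73e-05) came with no overlap between the groups. Kcna1, 61.4 kb from Kcna6 on chromosome 4, went the other way and was at 3.06, 2.62 and 1.35 CPM in TDP-43 + EA and at 0.534, 0.459 and 1.30 CPM in Control (log2 fold change 1.62 with SE 0.56, edgeR adjusted p = 0.0331). The gap between the closest Kcna1 libraries was small, the call was lost in 6 of 21 alternatives, and the log2 fold change was 2.23 without Control replicate 3. The most abundant member of the class, Kcna3, a channel also known from lymphocytes and microglia, had a log2 fold change of -0.13 (SE 0.22), and Kcnq5, of the M-type channels, one of 0.23 (SE 0.15). Neither passed the test, and both overlapped between the groups.

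Several genes of low abundance were present in TDP-43 + EA and absent or nearly so in Control. They are described after their values were seen, since apart from Kcnk3 they fall below the minimum of 50 counts set for naming a gene. Kcnk3, an acid-sensitive two-pore channel, had 101, 19 and 31 counts in TDP-43 + EA libraries and 0 in each Control library. Against a floor of 3 counts per library this is at least 18.0-fold higher, and replicate 1 alone gave 101 of the 151 counts. Kcng2, a modifier subunit that is silent unless joined to Kcnb subunits, had 47, 19 and 21 counts in TDP-43 + EA and 0 in each Control and Eda library, at least 10.5-fold higher than Control. Kcnc1, a fast delayed rectifier of fast-spiking neurons, had 8, 18 and 5 counts in TDP-43 + EA and 0 in each Control and Eda library, at least 3.91-fold higher than Control, with 18 of the 31 counts in replicate 2. Kcnk3, Kcng2 and Kcnc1 are 3 of the 7 genes counted as higher. They passed the filter on low counts only through groups in which they were high, so their counts and bounds are given without a p-value. Cacna1i, a T-type calcium channel, had 21, 9 and 4 counts in TDP-43 + EA and 2, 0 and 1 in Control, a ratio of 12.5 with a 95% counting interval of 3.94 to 63.8. Cacna1i too passed the filter only through groups in which it was high, so no p-value is given for it. Its call was lost in 4 of 20 alternatives, namely every limma-trend run and leaving out TDP-43 + EA replicate 1. Its log2 fold change of 3.48 was 4.28 without Control replicate 1.

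**Figure D3:**
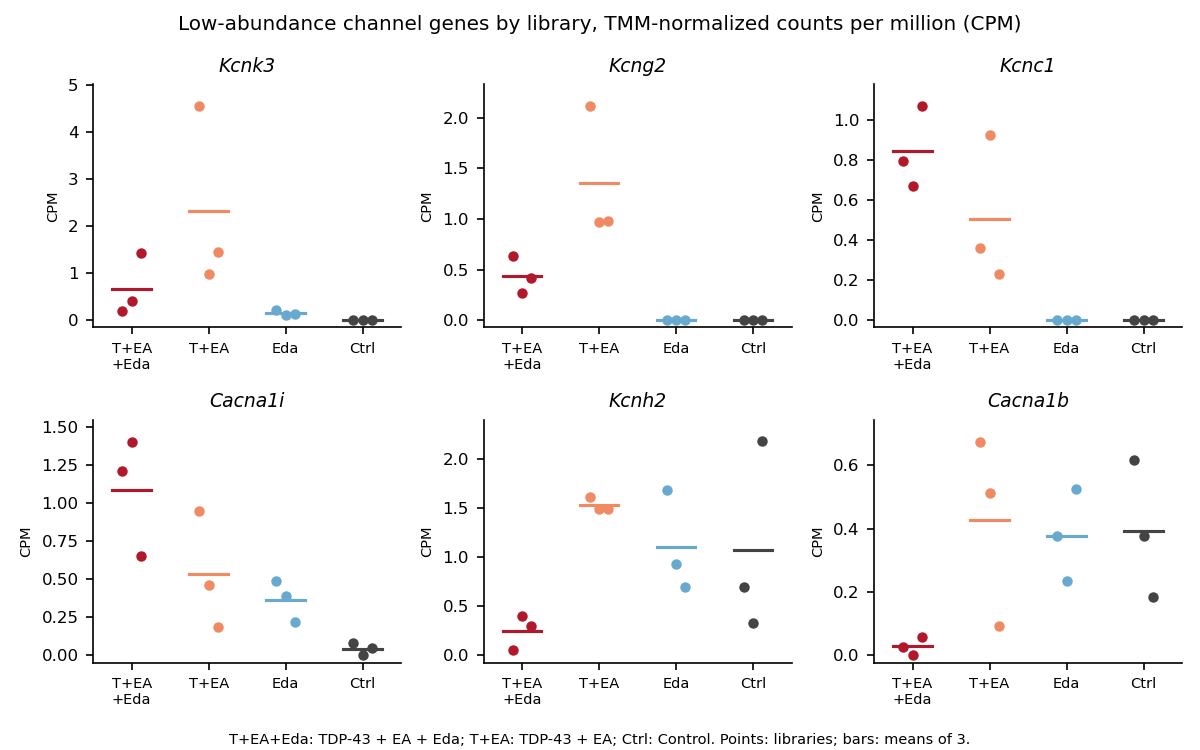
TMM-normalized CPM (vertical axis) of 6 channel genes of low abundance in each library, with TDP-43 + EA + Eda, TDP-43 + EA, Eda and Control from left to right and bars for the means of 3. Kcng2 and Kcnc1 are at 0 in all Eda and Control libraries, and Kcnk3 reaches 4.54 CPM in 1 TDP-43 + EA library against 0 in Control.

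Kcnt1, a sodium-activated potassium channel, and Kcng1, another modifier subunit, also passed the test in TDP-43 + EA, but with groups that overlapped. Kcnt1 had 0, 0 and 3 counts in TDP-43 + EA and 1, 25 and 20 in Control, a ratio of 0.0721 (95% counting interval 0.0144 to 0.224). Kcnt1 passed the filter on low counts only through groups in which it was high, so no p-value is given for it. Its call was lost in 11 of 20 alternatives, and the log2 fold change of -3.68 became -6.97 without TDP-43 + EA replicate 3. Kcng1 had 8, 10 and 11 counts in TDP-43 + EA and 10, 53 and 54 in Control (log2 fold change -1.88 with SE 0.64, edgeR adjusted p = 0.0299), and its call was lost in 7 of 21 alternatives.

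Among the sodium channel genes, Scn4a and Scn3b fell and Scn2a rose. Scn4a (chr10:94505026-94557764, minus strand) was at 23.2, 25.3 and 25.4 CPM in TDP-43 + EA and at 62.1, 53.3 and 44.7 CPM in Control, well apart, with a log2 fold change of -1.12 (SE 0.18, edgeR adjusted p = 0.000165). Scn3b, a beta subunit with slower effects on inactivation, was at 12.6, 9.45 and 7.50 CPM in TDP-43 + EA and at 26.5, 15.7 and 13.6 CPM in Control (log2 fold change -0.92 with SE 0.31, edgeR adjusted p = 0.0283). Its call was lost in 7 of 22 alternatives, among them leaving out Control replicate 1 or TDP-43 + EA replicate 2 or 3. Scn2a (chr3:51687809-51822250, plus strand) was at 4.18, 4.06 and 4.61 CPM in TDP-43 + EA and at 1.44, 2.59 and 1.02 CPM in Control. Every TDP-43 + EA library was higher (log2 fold change 1.34 with SE 0.36, edgeR adjusted p = 0.00829). Its neighbour Scn3a, 44.7 kb away, had a log2 fold change of 0.75 (SE 0.53) that did not pass the test.

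Of the 14 calcium channel genes tested, 2 rose and 1 fell, beside 19.6% and 18.7% of all genes tested. Cacna1d (chr16:6112150-6405117, minus strand), an L-type alpha1 subunit that opens at comparatively negative potentials, was at 1.12, 1.23 and 1.77 CPM in TDP-43 + EA and at 6.69, 6.34 and 3.67 CPM in Control. The groups were apart and the gene fell by 2.01 on the log2 scale (SE 0.31, edgeR adjusted p = 0.000153). Cacnb1, a beta subunit, was at 11.3, 11.8 and 10.3 CPM in TDP-43 + EA and at 7.92, 6.64 and 9.47 CPM in Control (log2 fold change 0.48 with SE 0.18, edgeR adjusted p = 0.044), and its call was lost in 15 of 22 alternatives, a replicate block among them. The highest members of the other calcium channel classes, Cacna1a (log2 fold change -0.30, SE 0.18), Cacna2d1 (-0.10, SE 0.13), Cacnb3 (-0.18, SE 0.25) and Cacng4 (0.27, SE 0.36), did not pass the test.

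**Figure D4:**
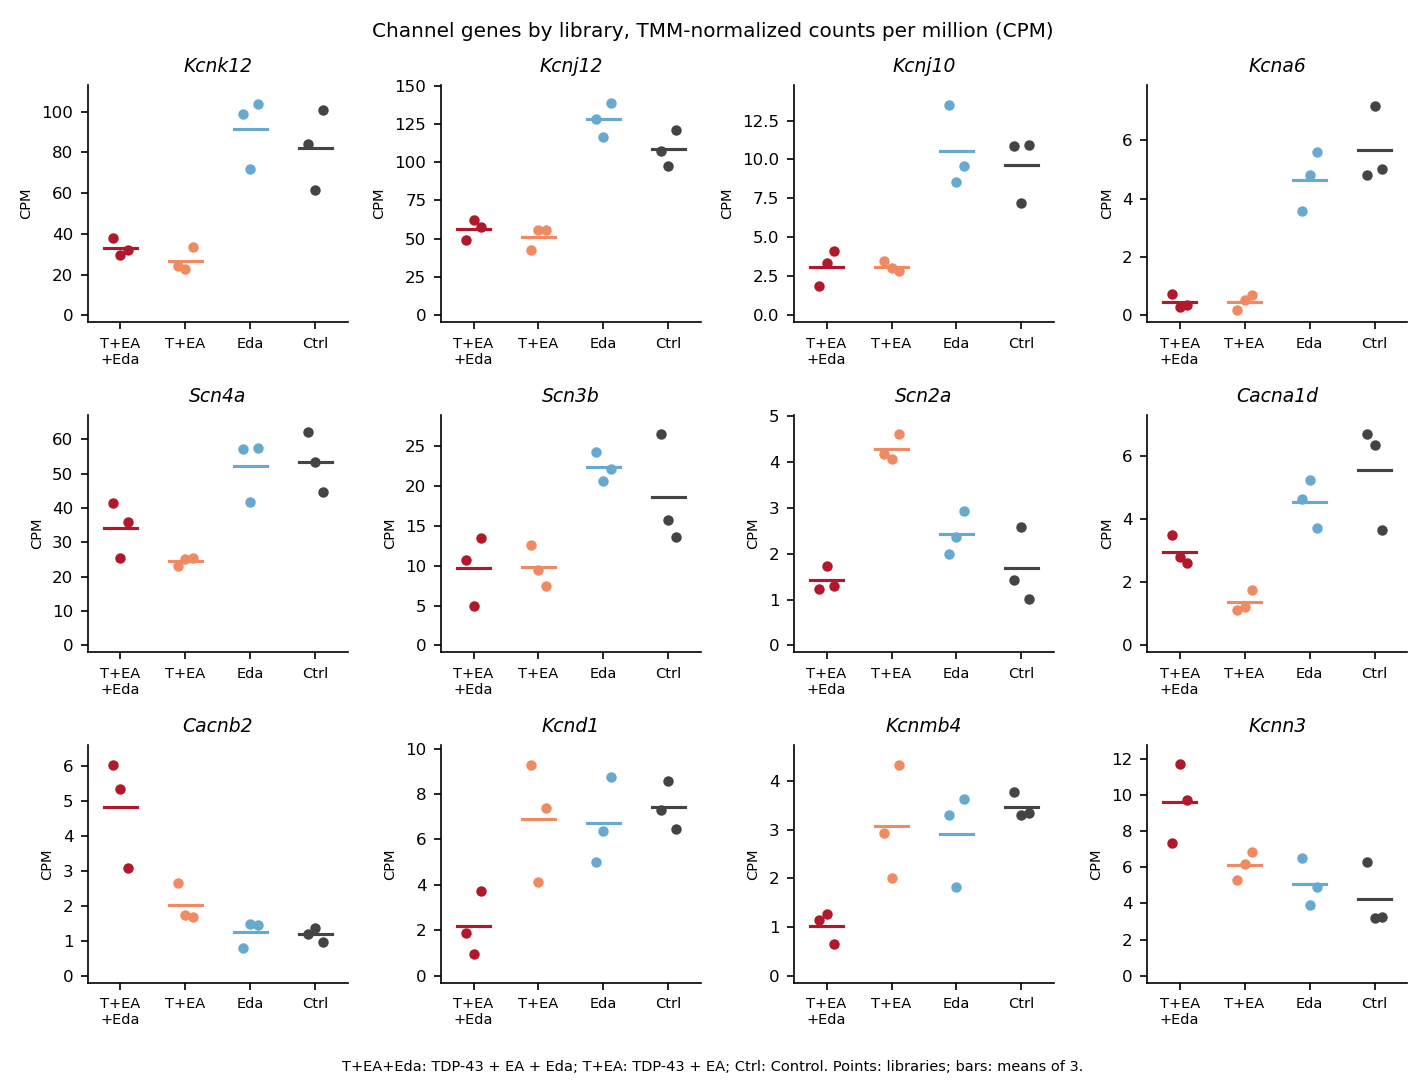
TMM-normalized CPM (vertical axis) of 12 channel genes in each library, with TDP-43 + EA + Eda, TDP-43 + EA, Eda and Control from left to right and bars for the means of 3. Kcnk12, Kcnj12, Kcnj10 and Kcna6 are low in both groups with TDP-43 + EA, and Scn2a is high in TDP-43 + EA only, at 4.06 to 4.61 CPM.

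The sequence before the annotated start is shown for 3 genes that fell and 1 that had no count in Control. These genes were picked by hand after their values were seen, not by size of change. Cacna1d, with a log2 fold change of -2.01, is not shown, while Scn4a, with -1.12, is. Of the 132 channel genes, 89 matched a RefSeq promoter entry by symbol (GRCr8, a later build than that of the counts). Kcnk12, Kcnj12 and Kcnk3 had none. The 250 bases up to the start are chr4:161262353-161262602 (minus strand) for Kcna6, chr13:87334260-87334509 (plus) for Kcnj10, chr10:91796325-91796574 (minus) for Scn4a and chr1:106038997-106039246 (plus) for Kcnc1, printed from 5′ to 3′ along the gene with the motif matches in capitals.
Kcna6: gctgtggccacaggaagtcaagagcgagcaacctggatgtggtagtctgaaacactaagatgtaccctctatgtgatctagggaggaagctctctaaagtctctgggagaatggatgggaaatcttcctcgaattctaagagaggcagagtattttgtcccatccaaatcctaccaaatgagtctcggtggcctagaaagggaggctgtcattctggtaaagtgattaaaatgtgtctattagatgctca
Kcnj10: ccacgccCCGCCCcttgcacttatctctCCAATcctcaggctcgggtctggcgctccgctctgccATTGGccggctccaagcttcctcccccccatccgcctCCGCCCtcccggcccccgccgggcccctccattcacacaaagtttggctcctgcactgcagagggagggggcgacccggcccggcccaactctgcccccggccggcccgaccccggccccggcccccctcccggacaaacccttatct
Scn4a: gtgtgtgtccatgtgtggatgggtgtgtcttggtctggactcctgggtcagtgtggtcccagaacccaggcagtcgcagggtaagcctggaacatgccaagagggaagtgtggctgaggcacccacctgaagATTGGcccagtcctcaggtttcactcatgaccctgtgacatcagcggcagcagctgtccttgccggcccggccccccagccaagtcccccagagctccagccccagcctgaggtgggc
Kcnc1: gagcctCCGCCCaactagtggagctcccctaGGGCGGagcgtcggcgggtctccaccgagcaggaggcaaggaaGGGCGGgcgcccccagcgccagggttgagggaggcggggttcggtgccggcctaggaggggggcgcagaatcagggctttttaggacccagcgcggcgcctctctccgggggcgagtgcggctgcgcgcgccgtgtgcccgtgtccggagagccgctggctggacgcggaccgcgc
Both strands were searched for the GC box GGGCGG, the factor-binding box CCAAT, the TATA box TATAAA, the antioxidant response element TGACNNNGC, the AP-1 site TGANTCA, the heat shock element core GAANNTTC and the cAMP response element TGACGTCA, of which those beginning with TGA can share letters. Kcnj10 held 2 matches to GGGCGG and 2 to CCAAT, Kcnc1 held 3 to GGGCGG, Scn4a held 1 to CCAAT and Kcna6 held none. None of these windows held the other letters searched. Their GC content was 45.6% for Kcna6, 72.4% for Kcnj10, 62.8% for Scn4a and 74.4% for Kcnc1. Over all 33469 windows of this length, 30.5% held GGGCGG, 34.0% CCAAT, 12.9% TATAAA, 10.1% TGACNNNGC, 6.34% TGANTCA, 7.23% GAANNTTC and 1.59% TGACGTCA. Over the 98 windows of channel genes, whose median GC content was 60.2% against 51.2% for all, 49.0% held GGGCGG, 21.4% CCAAT, 4.08% TATAAA, 9.18% TGACNNNGC, 3.06% TGANTCA, 2.04% GAANNTTC and none TGACGTCA. These matches describe letters only.

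The second comparison set cells with edaravone under TDP-43 + EA against those without it. Tardbp levels and TMM factors also differed between these groups without overlap, as given above, and the part of that was not tested. Of the 62 genes, 4 rose and 8 fell in TDP-43 + EA + Eda relative to TDP-43 + EA (6.45% and 12.9%), while 15.4% of all genes tested rose and 15% fell. The median log2 fold change was -0.01 for channel genes and -0.02 for all genes tested. With limma-trend on log2(TPM + 1) the split was 1 higher and 6 lower. Without TDP-43 + EA + Eda replicate 1, the deepest library, 7 genes passed, of which 1 rose. The genes dominating the losses under TDP-43 + EA did not pass the test here, with log2 fold changes of 0.31 (SE 0.20) for Kcnk12, 0.14 (SE 0.13) for Kcnj12, -0.03 (SE 0.30) for Kcnj10 and 0.09 (SE 0.50) for Kcna6. Kcnk12 was at 38.1, 29.4 and 32.1 CPM in TDP-43 + EA + Eda, overlapping TDP-43 + EA, and Kcna6 at 0.742, 0.267 and 0.356 CPM.

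The genes that fell with edaravone came from several classes. Kcnd1, an A-type channel alpha subunit, was at 1.87, 0.935 and 3.74 CPM in TDP-43 + EA + Eda and at 9.26, 4.11 and 7.36 CPM in TDP-43 + EA (log2 fold change -1.67 with SE 0.40, edgeR adjusted p = 0.00629). Kcnmb4, the beta subunit of neuronal BK channels, was at 1.15, 1.27 and 0.652 CPM in TDP-43 + EA + Eda and at 2.92, 2.00 and 4.33 CPM in TDP-43 + EA (log2 fold change -1.58 with SE 0.39, edgeR adjusted p = 0.00726). Neither pair of groups overlapped. Scn2a was at 1.24, 1.74 and 1.30 CPM in TDP-43 + EA + Eda, below the 4.06 to 4.61 CPM of TDP-43 + EA (log2 fold change -1.60 with SE 0.37, edgeR adjusted p = 0.00445), and within the range of Control. For Scn2a this step was opposite to that between TDP-43 + EA and Control. Kcne2, an accessory subunit (log2 fold change -1.86 with SE 0.55, edgeR adjusted p = 0.0197), and Cacna1h (-0.73, SE 0.24, edgeR adjusted p = 0.0343) fell as well. The Kcne2 fold change was -2.61 without TDP-43 + EA + Eda replicate 1, and its call was lost in 3 of 21 alternatives. That of Cacna1h was lost in 8 of 22.

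Kcnh2 and Cacna1b also fell but lie below the minimum for naming, so they were picked after their values were seen. Kcnh2, the ERG potassium channel of cardiac repolarization, had 2, 6 and 5 counts in TDP-43 + EA + Eda and 36, 29 and 32 in TDP-43 + EA (log2 fold change -2.74 with SE 0.80, edgeR adjusted p = 0.0187). Without TDP-43 + EA + Eda replicate 1 this was -2.13 and not called (adjusted p = 0.0768). Cacna1b, the N-type calcium channel of presynaptic terminals, had 1, 0 and 1 counts in TDP-43 + EA + Eda and 15, 10 and 2 in TDP-43 + EA, a ratio of 0.0686 (95% counting interval 0.00791 to 0.273). Cacna1b passed the filter on low counts only through groups in which it was high, so no p-value is given for it. Its call was lost in 7 of 20 alternatives, among them leaving out TDP-43 + EA replicate 1 or 2.

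The genes that rose with edaravone were Cacnb2, Cacna1d, Kcnd3 and Scn4a. Cacnb2, a beta subunit of L-type channels, was at 6.02, 5.34 and 3.08 CPM in TDP-43 + EA + Eda and at 2.65, 1.75 and 1.68 CPM in TDP-43 + EA (log2 fold change 1.25 with SE 0.37, edgeR adjusted p = 0.0198). Cacna1d was at 3.49, 2.80 and 2.61 CPM in TDP-43 + EA + Eda and at 1.12, 1.23 and 1.77 CPM in TDP-43 + EA (log2 fold change 1.12 with SE 0.32, edgeR adjusted p = 0.0154). Cacna1d thus lay between TDP-43 + EA and Control in every library. Kcnd3, the A-type relative of Kcnd1, was at 17.2, 20.3 and 11.9 CPM in TDP-43 + EA + Eda and at 8.90, 10.3 and 7.18 CPM in TDP-43 + EA (log2 fold change 0.91 with SE 0.22, edgeR adjusted p = 0.00724). These A-type genes moved in opposite directions and neither overlapped between the groups. Scn4a was at 41.4, 25.4 and 35.9 CPM in TDP-43 + EA + Eda, against 23.2 to 25.4 CPM in TDP-43 + EA (log2 fold change 0.48 with SE 0.18, edgeR adjusted p = 0.0498). It lost its call in 14 of 22 alternatives. On the TPM scale none of Cacna1d, Kcnd3 and Scn4a passed the limma-trend test, and Cacna1d and Cacnb2 were not called without TDP-43 + EA + Eda replicate 1.

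Set against Control, TDP-43 + EA + Eda cells had 10 channel genes higher and 14 lower (16.1% and 22.6%), with 27.1% of all genes tested higher and 30.4% lower. The median log2 fold change was -0.23 for channel genes and -0.08 for all genes tested. This comparison shares libraries with each of the others, so it adds values but no separate evidence. Kcnk12 (log2 fold change -1.30, SE 0.19), Kcnj12 (-0.94, SE 0.13), Kcnj10 (-1.66, SE 0.30) and Kcna6 (-3.51, SE 0.46) fell, with edgeR adjusted p-values of 0.000213 or lower. The Kcna6 value was -4.15 without TDP-43 + EA + Eda replicate 1. Kcnj9 fell here (-1.06, SE 0.39, edgeR adjusted p = 0.029), so that 3 of 4 inward rectifiers tested were lower, but its call was lost without Control replicate 1 or 2 or TDP-43 + EA + Eda replicate 1 or 2. Scn3b (-0.93, SE 0.31), Scn4a (-0.63, SE 0.17), Cacna1d (-0.90, SE 0.30), Cacna1h (-0.70, SE 0.24), Kcnd1 (-1.77, SE 0.40) and Kcnmb4 (-1.75, SE 0.39) were lower too. Kcnh2 and Cacna1b fell as well. The Kcnh2 call was lost without Control replicate 3 (log2 fold change -1.17, against -2.21 over all libraries) and without TDP-43 + EA + Eda replicate 1 (-1.60, edgeR adjusted p = 0.116), and that of Cacna1b without Control replicate 1 or TDP-43 + EA + Eda replicate 1. Leaving out Control replicate 1 also ended the calls of Scn3b, Cacna1d and Cacna1h. Those of Scn3b and Cacna1h were lost without TDP-43 + EA + Eda replicate 2 as well, that of Cacna1h without replicate 1 of that group, and that of Cacna1d without TDP-43 + EA + Eda replicate 3 or Control replicate 2.

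Of the calcium- or sodium-activated potassium channel genes tested, 2 of 5 were higher than Control. So were 2 of 4 calcium channel beta genes, 1 of 2 gamma genes and 0 of 2 alpha2delta genes. Of all genes tested, 27.1% were higher. The other genes of these classes did not pass the threshold. Kcnn3, a small-conductance (SK) channel, was at 7.37, 11.7 and 9.73 CPM in TDP-43 + EA + Eda and at 6.28, 3.17 and 3.25 CPM in Control (log2 fold change 1.17 with SE 0.30, edgeR adjusted p = 0.00341). Kcnma1, the alpha subunit of the large-conductance (BK) channel, was at 7.78, 5.07 and 9.73 CPM in TDP-43 + EA + Eda and at 2.83, 3.26 and 3.57 CPM in Control (log2 fold change 1.23 with SE 0.30, edgeR adjusted p = 0.00291). In CPM, BK alpha was thus higher, and the BK beta subunit gene Kcnmb4 lower, in every TDP-43 + EA + Eda library. The Kcnma1 call was lost with limma-trend on log2(TPM + 1) and log2(TPM + 0.1), though not on the genes of the edgeR fit. Cacnb2 rose (log2 fold change 2.03 with SE 0.38, edgeR adjusted p = 0.000378), Cacng4, an AMPA receptor auxiliary subunit of the gamma family, by 1.23 (SE 0.36), Cacnb1 by 0.65 (SE 0.18) and Kcnd3 by 0.57 (SE 0.22). The Kcnd3 call was lost in 9 of 22 alternatives, among them leaving out any 1 of the Control libraries, and that of Cacng4 was lost without TDP-43 + EA + Eda replicate 1. With limma-trend on log2(TPM + 1) and log2(TPM + 0.1) the calls of Cacng4, Cacnb1 and Kcnd3 were lost as well. Those of Kcnn3 and Cacnb2 were kept in all 22 alternatives. Kcnc1 (29, 10 and 18 counts), Kcnk3 (7, 6 and 24 counts) and Kcng2 (23, 4 and 7 counts) were present in TDP-43 + EA + Eda and at 0 in Control, at least 6.53-fold, 5.20-fold and 3.39-fold higher, with 24 of the 37 Kcnk3 counts in replicate 3. Cacna1i had 44, 21 and 11 counts in TDP-43 + EA + Eda and 3 in all in Control, a ratio of 25.9 (95% counting interval 8.55 to 129). Leaving out Control replicate 1 moved its log2 fold change to 5.31, with 4.50 over all libraries.

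Edaravone alone moved no channel gene past the threshold. In Eda against Control, 0 of the 62 genes and 0% of all genes tested passed with edgeR, and no channel gene was called with DESeq2 or limma-trend either. At an unadjusted p under 0.05 there were 2 of the 62 channel genes, Kcnk3 and Cacna1i, beside 4.07% of all genes tested. Both passed the filter on low counts only through groups in which they were high, so this adds no support for a change. Kcnk3 had 6, 3 and 3 counts in Eda and 0 in Control, at least 1.22-fold higher. Cacna1i had 13, 10 and 5 counts in Eda and 2, 0 and 1 in Control, a ratio of 8.67 (95% counting interval 2.68 to 44.6). Both were higher in every Eda library, and both failed the correction. The abundant genes Kcnk12 (log2 fold change 0.15, SE 0.19), Kcnj12 (0.24, SE 0.12) and Cacna2d1 (-0.17, SE 0.13) had SE values that leave room for modest changes in either direction.

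Whether edaravone acted differently with and without TDP-43 + EA was tested as an interaction over all 4 groups. Of the 62 genes, 2 had a more positive and 3 a more negative change with edaravone under TDP-43 + EA, whereas 8.42% and 7.04% of all genes tested did. Scn2a had an interaction of -2.12 (SE 0.51, edgeR adjusted p = 0.013). Kcnd3 had one of 1.23 (SE 0.32, edgeR adjusted p = 0.0183) and Cacna1d one of 1.41 (SE 0.43, edgeR adjusted p = 0.038). Kcnk3 was also called, on 12 counts in Eda and none in Control. Since Kcnk3 passed the low-count filter only through groups in which it was high, no p-value is given. Without Control replicate 1, Control replicate 2, Eda replicate 1 or TDP-43 + EA replicate 1 the number of genes called was 3, and Cacna1d and Kcnk3 were the ones lost each time.

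**Figure D5:**
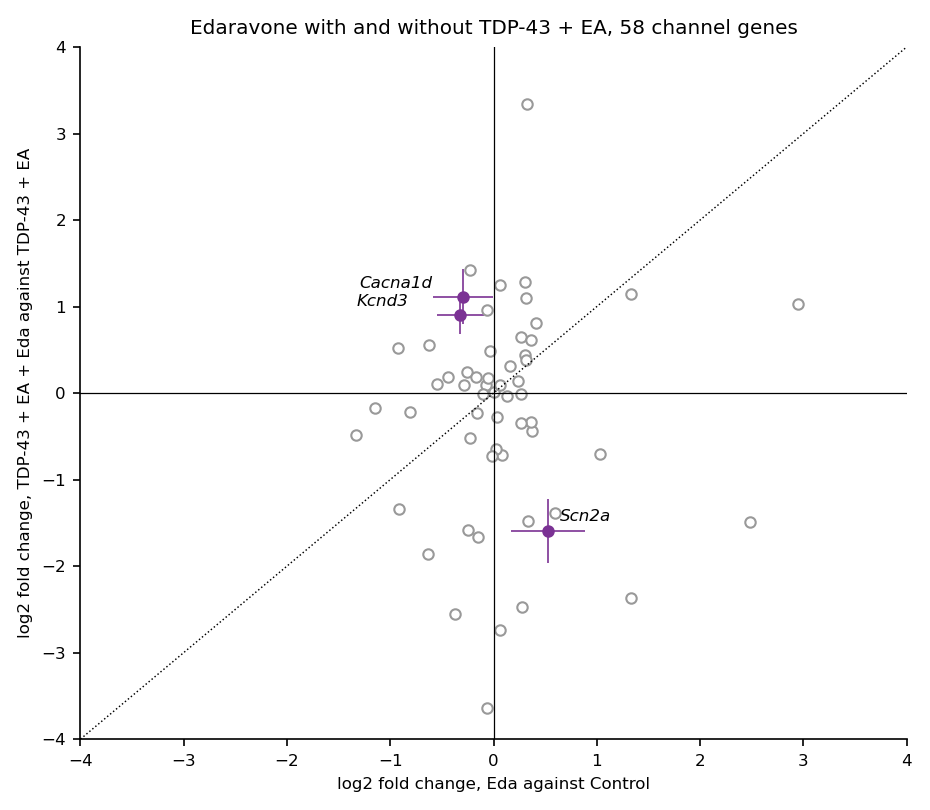
Log2 fold change with edaravone under TDP-43 + EA (vertical axis) against that with edaravone alone (horizontal axis) for 58 channel genes with a count in Control. Filled points with SE bars passed the interaction test, and the dotted line marks equal change. Scn2a lies below that line (interaction of -2.12) and Cacna1d and Kcnd3 above it (1.41 and 1.23).

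Genes that work with these channels were read from lists. Of 15 tested genes that cluster or anchor channels, 0 rose and 5 fell in TDP-43 + EA against Control, with a median log2 fold change of -0.23, where 19.6% of all genes tested rose and 18.7% fell. Ank3, the ankyrin that holds sodium channels at the axon initial segment, fell by 2.06 on the log2 scale (SE 0.15), Nfasc, its adhesion partner, by 1.10 (SE 0.13) and Ank2 by 0.61 (SE 0.13), each with an edgeR adjusted p of 0.00185 or lower. Of 13 tested accessory proteins outside the channel names, 3 rose and 2 fell. Gem (3.04, SE 0.27) and Rrad (2.19, SE 0.33), small GTPases that bind calcium channel beta subunits, rose, and Nedd4l, a ubiquitin ligase of sodium channels, fell (-1.04, SE 0.15). Of 22 pumps and exchangers, 2 rose and 8 fell, with the sodium pump beta subunit Atp1b3 (0.64, SE 0.10) higher and the calcium pump Atp2b4 (-1.83, SE 0.15) lower. Of 29 other cation and chloride channels, 8 rose and 5 fell, among them the proton channel Hvcn1 (4.26, SE 0.45) and the scramblase Ano6 (0.88, SE 0.11), which rose. In the edaravone comparison under TDP-43 + EA the numbers higher and lower were 1 and 2 of the anchoring genes, 4 and 2 of the accessory proteins, 3 and 1 of the pumps and 5 and 2 of the other channels, where 15.4% of all genes tested were higher and 15% lower. Gem rose further (1.48, SE 0.23), Rrad fell (-0.97, SE 0.31) and Nedd4l rose (0.81, SE 0.15). In Eda against Control no gene of these lists passed.

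Markers of cell types moved with the groups, and since these were bulk samples fewer cells of a type and less RNA per cell cannot be told apart. Counts of markers below are for TDP-43 + EA against Control, where 19.6% of all genes tested rose and 18.7% fell. Of 15 oligodendrocyte lineage markers, 14 fell and 0 rose in TDP-43 + EA, with a median of -1.20 and Gpr17 (-2.88), Opalin (-2.56) and Myrf (-1.44) leading. Their summed TPM was 12771 to 17232 in TDP-43 + EA + Eda, 15735 to 19978 in TDP-43 + EA, 31338 to 36745 in Eda and 33200 to 41654 in Control. Of 9 tested neuronal markers, 2 rose, 4 fell and 3 did not pass, so the list moved both ways. Gap43, Elavl3 and Syt1, named for the smallest adjusted p, are among those that passed. The neuronal markers summed to 188 to 340 TPM in TDP-43 + EA + Eda, 254 to 384 TPM in TDP-43 + EA, 467 to 526 TPM in Eda and 447 to 531 TPM in Control. Stmn2, Elavl4 and Dcx were under 0.1 TPM in Control. Of 5 tested astrocyte markers 2 fell, Glul and Aldoc, and the sum was 495 to 614 TPM in TDP-43 + EA + Eda, 669 to 738 TPM in TDP-43 + EA, 1295 to 1339 TPM in Eda and 1213 to 1285 TPM in Control, with Aqp4, Aldh1l1, Slc1a2 and Gja1 under 0.1 TPM in Control. Neural stem cell markers had 1 of 5 higher (Sox2, 0.42), and their sums of 530 to 640 TPM in TDP-43 + EA + Eda, 633 to 793 TPM in TDP-43 + EA, 536 to 673 TPM in Eda and 549 to 721 TPM in Control overlapped. Of the motor neuron markers only Lhx3 was tested and did not pass, the sum did not exceed 1.20 TPM in any library, and Mnx1 and Slc18a3 had no count. Microglia and macrophage markers summed to 8.19 to 14.2 TPM in TDP-43 + EA + Eda, 5.50 to 9.09 TPM in TDP-43 + EA, 4.28 to 5.39 TPM in Eda and 1.97 to 6.14 TPM in Control, with Cd68 higher (1.52) and Cx3cr1 and Ptprc without a count. Mesenchymal, vascular and muscle markers summed to 2.32 to 4.64 TPM in TDP-43 + EA + Eda, 2.80 to 4.16 TPM in TDP-43 + EA, 0.819 to 1.51 TPM in Eda and 1.10 to 1.66 TPM in Control. Myod1 rose and Col1a1 fell, and the muscle genes Des and Myog had no count although Scn4a was the leading sodium channel. The oligodendrocyte, neuronal and astrocyte sums were each lower in TDP-43 + EA than in Control without overlap. Kcnj10, Kcnj12 and Kcnk12 fell as well, and the part of any of these cell types in those results was not tested.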

How the data were processed

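RNA of 12 libraries, 3 in each of 4 groups, was measured. Per the paper, 1.0 ng of RNA went through SMART-Seq v4 amplification and paired reads of 150 bases, and the submitters' processing notes name bcl2fastq 2.20, DRAGEN, R 3.6.0 and DESeq2 1.26.0, with genome Rnor_6.0. Expected counts, as deposited, are estimates of reads per gene without normalization. For TPM the authors scaled such estimates by transcript length. How reads shared between genes were split is not given in the sources used here. Genes annotated over the named members had next to no counts. This kit does not mark strand, so antisense reads cannot be told apart.

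Expected counts were rounded. Genes were filtered with filterByExpr and fitted over all 12 libraries with group as the only term in edgeR 4.0.16 (TMM, quasi-likelihood, R 4.3.3), with adjusted p over all genes tested. Depth was 17.4 to 43.9 M counts. Counting intervals (exact, 95%) and floors (3 counts) cover counting error only. Members and lists were chosen with earlier results of these data known. The text names, per comparison and direction, up to 12 called members with the largest change, no overlap between groups and, in the higher group, a mean of 50 counts or more, the 2 highest members of each class by Control TPM, and up to 3 genes of each partner or marker list with the smallest adjusted p. Others were named after their values were seen, and some genes that the rule picks are not reported here. Alternatives were other size factors, DESeq2 1.42.0, other filters, limma-trend (limma 3.58.1) on log2(TPM + 1) and log2(TPM + 0.1), a replicate block, a fold minimum and each library left out. The tests were tried on simulated counts. Promoters and figures used Python 3.11.15 and matplotlib 3.10.9.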

Additional observations from a re-analysis of the deposited data

Results flagged for a closer look

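Among the channel genes described here, 4 were called by the interaction test of edgeR, of which Kcnk3 rests on a group with no counts. The value given is the change with edaravone under TDP-43 + EA minus that without. For Scn2a it was -2.12 (log2, SE 0.51, adjusted p = 0.013), from -1.60 under TDP-43 + EA and 0.53 without. For Kcnd3 it was 1.23 (SE 0.32, adjusted p = 0.0183), from 0.91 and -0.32, and for Cacna1d 1.41 (SE 0.43, adjusted p = 0.038), from 1.12 and -0.29. The Cacna1d call was lost in 12 of 21 alternatives, among them leaving out any 1 of the Eda libraries, and the Kcnd3 call in 4 of 21. For Kcnk3 it was -6.75 (SE 1.90), a fitted value that is no bound and is given without a p-value. The Kcnk3 call was lost in 7 of 20 alternatives.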

How the results depend on the processing

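No channel gene called with edgeR changed direction under any alternative run. Some calls were kept in every alternative apart from requiring a log2 fold change of at least 1. In TDP-43 + EA against Control these were 9 of 17, among them Cacna1d, Kcna6, Kcnj10, Kcnj12, Kcnk12, Scn2a and Scn4a. In TDP-43 + EA + Eda relative to TDP-43 + EA they were 4 of 12, among them Kcnd1, Kcnmb4 and Scn2a. They were 12 of 24 in TDP-43 + EA + Eda against Control and 2 of 5 interactions (among them Scn2a). The 9 and the 12 include Kcng2, and the 12 also Kcnc1. Kcng2 and Kcnc1 passed the low-count filter only through groups in which they were high, so their kept calls add no support. With genes of a mean of at least 50 counts only, where fewer genes are tested, 10 genes passed in TDP-43 + EA against Control and 2 rose, 5 fell with edaravone under TDP-43 + EA, and 6 rose in TDP-43 + EA + Eda against Control. With limma-trend on log2(TPM + 1), 10 passed in TDP-43 + EA against Control and 3 rose, 7 passed with edaravone under TDP-43 + EA and 1 rose, and 3 interactions passed, while on the genes of the edgeR fit 1 rose with edaravone under TDP-43 + EA and 6 rose in TDP-43 + EA + Eda against Control. With log2(TPM + 0.1), 11 and 4 in the first comparison, and 0 rose in the second. Fitting only the groups compared, 4 rose in the first. With DESeq2, 7 rose in the second. With a log2 fold change of at least 1, 2 rose in the second and 8 fell in TDP-43 + EA + Eda against Control. The share of all genes tested under each setting is not given, so these counts do not set channel genes against other genes. The cause of these differences was not tested.

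Leaving out each library in turn gave 12 to 17 genes in TDP-43 + EA against Control (4 to 7 higher, 7 to 10 lower), 7 to 13 in TDP-43 + EA + Eda relative to TDP-43 + EA (1 to 5 higher, 6 to 8 lower), 21 to 27 in TDP-43 + EA + Eda against Control (8 to 11 higher, 12 to 16 lower), 0 in Eda against Control and 3 to 7 interactions. A replicate block gave 16, 14, 25, 0 and 5 genes in the same order. For these runs too the share of all genes tested is not given. The replicate numbers were not taken as pairs, since same-numbered libraries correlated at 0.07 to 0.10 in TDP-43 + EA against Control and not every pair exceeded 0.1. Each library correlated best with its own number, and the library codes in the labels run in sets by that number, but no source used here says what a number marks.

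Of the 62 members tested, 32 had a mean of at least 50 counts. Changes of genes with fewer counts were not detectable at this depth unless large.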

Other observations

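Some channel genes that were too low to be tested had counts in 1 group and few in Control. They were picked after their values were seen, and with no test. Kcna7, a Shaker-type potassium channel best known from muscle, had 35 counts over the TDP-43 + EA + Eda libraries and 0 over Control, at least 3.40-fold higher against the floor of 3 counts per library. Scn11a, a sodium channel of sensory neurons, had 31 counts in TDP-43 + EA and 1 in Control, a ratio of 34.3 with a 95% counting interval of 5.71 to 1397. Cacna2d3, an alpha2delta subunit, had 2 counts in TDP-43 + EA + Eda and 27 in Control, a ratio of 0.0759 (interval 0.00874 to 0.302).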
